A study of Mus musculus with 6 samples.

Results

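Granins and the enzymes that process neuropeptides were followed in E14 mouse embryonic stem cells as a family of 10 genes, Chga, Chgb, Scg2, Scg3, Scg5, Vgf, Pcsk1, Pcsk1n, Pcsk2 and Cpe. They were taken by symbol, and all 10 were found among the 31641 genes of the table. The family was put together with the difference between knockdown and control already known, and the members' levels in KD and CON are the values behind that choice. Its differences are therefore given as measurements, with no p-value, and where edgeR or DESeq2 placed a member is stated only as a description. The control group (CON, 3 libraries) was wild type for Nat10, an RNA acetyltransferase, and received no doxycycline. The knockdown group (KD, 3 libraries) carried the Nat10 knockdown and received doxycycline, so the drug and the knockdown cannot be told apart. The labels do not give the knockdown construct, the length of treatment or whether replicates were separate cultures, so any p-value speaks only of the scatter among these 6 libraries, which may be technical.

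Each library held between 33770755 and 39524273 counts of reads in genes. Levels are CPM, the counts scaled to a common library size after TMM normalization, which corrects for differences in library composition, or FPKM where genes are compared with each other, since FPKM is also scaled by gene length. Nat10 fell from 149 ± 2.93 to 27.4 ± 1.24 CPM (SD, n = 3 libraries per group). KD-3 stood apart from the other KD libraries: the chi-square per degree of freedom between pairs of KD libraries was 3.00 for KD-1 and KD-2, but 14.3 for KD-1 and KD-3 and 10.7 for KD-2 and KD-3. In CON the same measure ranged from 2.69 to 5.03. All 7 embryonic stem cell markers fell, where edgeR placed 30.8% of all genes tested lower. Their summed level went from between 5723 and 5801 CPM in the CON libraries to between 2062 and 2099 CPM in the KD libraries.

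Granins are acidic secretory proteins that aggregate in the trans-Golgi network and are packed into dense-core granules, the regulated secretory vesicles of neurons and endocrine cells. Many are themselves precursors of peptides. Within the granule, prohormone convertases cut precursors at pairs of basic residues, and carboxypeptidase E then trims the basic residues from the new ends. Separate proteins bind the convertases: 7B2, the product of Scg5, is needed for the maturation of prohormone convertase 2, and proSAAS, the product of Pcsk1n, gives rise to an inhibitor of prohormone convertase 1. Genes of this family serve as markers of neuroendocrine cells.

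In KD, all 6 granin genes and all 3 enzyme genes were higher than in CON, and Pcsk1n alone was lower. For 9 of the 10 genes every KD library lay above every CON library in CPM. Of all 31641 genes, 21.7% had that order, and 34.4% of the 18019 genes with enough counts to be tested. The differences ran from 1.58-fold for Cpe to 28.5-fold for Scg3 and 30.0-fold for Scg5, and the ratio for Scg2, 39.9, rests on 2 counts in CON. Of the 10 genes 9 had enough counts for the fit, and edgeR placed 8 of these higher and 1 lower past an adjusted p of 0.05, where it placed 32.2% of all genes tested higher and 30.8% lower. Nothing is read from that count, because the family was chosen on this contrast. With libraries scaled by total count only, the genes placed higher were 70.1% of all those placed, against 51.1% with TMM, and the median log2 fold change of all genes tested went from 0.02 to 0.25. The 9 fitted genes kept their direction under that scaling, which is no sign of stability in genes chosen on this contrast. Pcsk1n did not pass the threshold there.

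**Figure D1:**
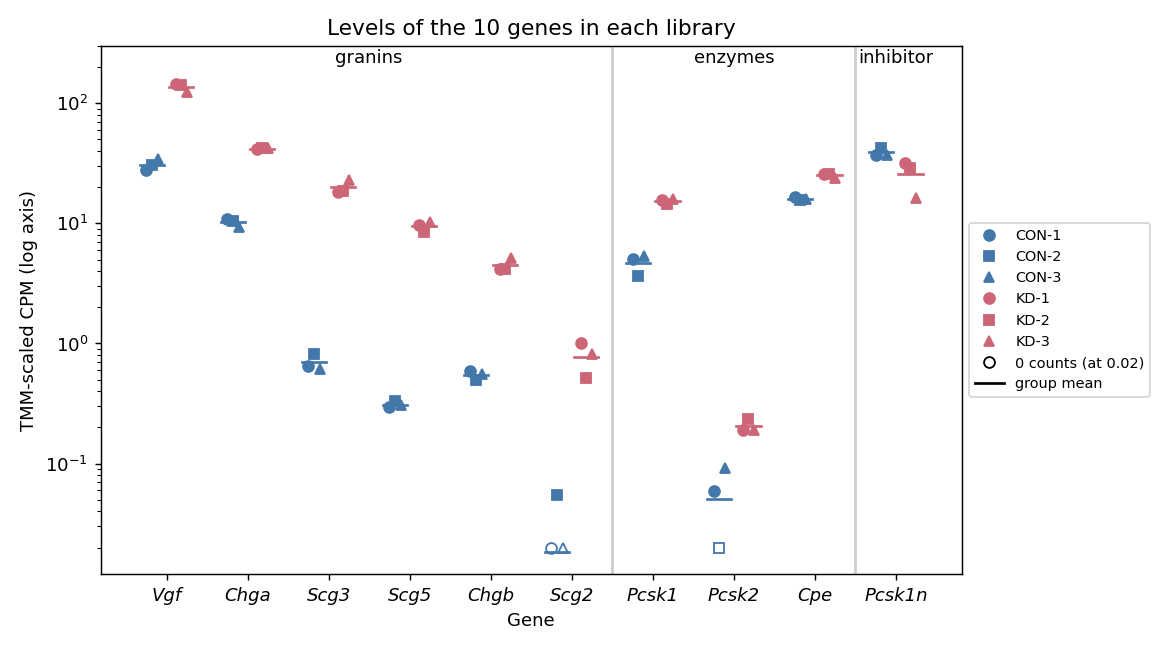
Level of each of the 10 genes in each of the 6 libraries, in TMM-scaled CPM on a log axis, with CON in blue, KD in red, a marker shape per replicate number and a line at each group mean. Open symbols are libraries with 0 counts, drawn at 0.02; the red points lie above the blue ones for every gene but Pcsk1n.

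The promoters of these genes are shown because granin and convertase promoters are known for an element that the choice of the family did not use. This cAMP response element (CRE), bound by CREB and related factors, is the palindrome TGACGTCA, and its core TGACG was searched on both strands. RefSeq promoter windows of 300 bases, from 250 before to 50 after the transcription start (GRCm38.p6), were matched for 8 of the 10 genes, all but Vgf and Cpe. A full CRE stood in 3 of the 8 windows, those of Chgb, Scg2 and Pcsk1, and the core in 7 of 8. Among all 32851 RefSeq windows, 1.79% held the full CRE and 20.8% the core, and of the 16022 windows of genes tested here 2.85% and 28.5%. Every full CRE also counts as a core match. The 120 bases before the start are printed on the strand of the gene, 5′ to 3′, for the 3 genes with a full CRE. The stretches of Chga and Scg3, with a core only, and of Pcsk1n, with neither, follow them. Most windows of genes tested lack the core, and whether a match goes with a gene's direction was not tested. Capitals mark the CRE or its core.
Chgb: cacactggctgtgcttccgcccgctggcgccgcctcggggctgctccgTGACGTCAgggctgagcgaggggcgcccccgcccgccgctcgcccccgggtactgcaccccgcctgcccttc
Scg2: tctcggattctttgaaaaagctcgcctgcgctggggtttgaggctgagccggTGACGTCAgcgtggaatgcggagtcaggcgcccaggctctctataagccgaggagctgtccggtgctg
Pcsk1: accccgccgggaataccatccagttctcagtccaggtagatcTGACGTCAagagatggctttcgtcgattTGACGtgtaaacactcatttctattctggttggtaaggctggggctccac
Chga: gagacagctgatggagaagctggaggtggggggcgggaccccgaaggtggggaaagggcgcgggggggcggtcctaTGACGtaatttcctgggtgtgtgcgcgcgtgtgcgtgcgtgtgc
Scg3: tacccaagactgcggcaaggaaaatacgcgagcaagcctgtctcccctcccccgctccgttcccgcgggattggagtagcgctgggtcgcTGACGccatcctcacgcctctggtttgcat
Pcsk1n: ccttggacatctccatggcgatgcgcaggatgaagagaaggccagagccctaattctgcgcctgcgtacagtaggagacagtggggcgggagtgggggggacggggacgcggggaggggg

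The stretches lie on GRCm38.p6 at chr2:132781522-132781641 (forward strand) for Chgb, chr1:79440027-79440146 (reverse) for Scg2, chr13:75089737-75089856 (forward) for Pcsk1, chr12:102554821-102554940 (forward) for Chga, chr9:75684057-75684176 (reverse) for Scg3 and chrX:7919702-7919821 (forward) for Pcsk1n. The 3 full CREs began at similar distances from the RefSeq start, at base -72 in Chgb, -68 in Scg2 and -78 in Pcsk1. GENCODE M21, another annotation, begins Chgb and Scg2 further upstream, at 132781278 and 79440120. By that annotation their CREs lie inside the genes, at 132781570 to 132781577 and 79440087 to 79440094. The full CRE of Pcsk1 lies before the gene in both annotations. Pcsk1 had a further core match from base -50. The core matches of Chga, Scg3 and Pcsk2 lay nearer the start, from -44, -30 and -34. Scg5 had 3 core matches, from -175 and from 20 and 41 bases past the start. The exact letters TATAAA of a TATA box were found in the Chga window only, 6 bases past the RefSeq start, and in 13.6% of all windows. GENCODE M21 begins Chga at 102554969, downstream of this match. Variants of the TATA box were not searched, such as the tataag in the Scg2 stretch above. The RE1 element, bound by the repressor REST, was searched as a single strict pattern. It matched none of the 8 windows and 21 of all 32851 windows (0.0639%). A pattern that rare could hardly match in 8 windows, and bases outside the windows were not searched. Whether these genes hold an RE1 therefore cannot be read from this search. These matches are letters in a window and were not tied to binding of a factor.

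**Figure D2:**
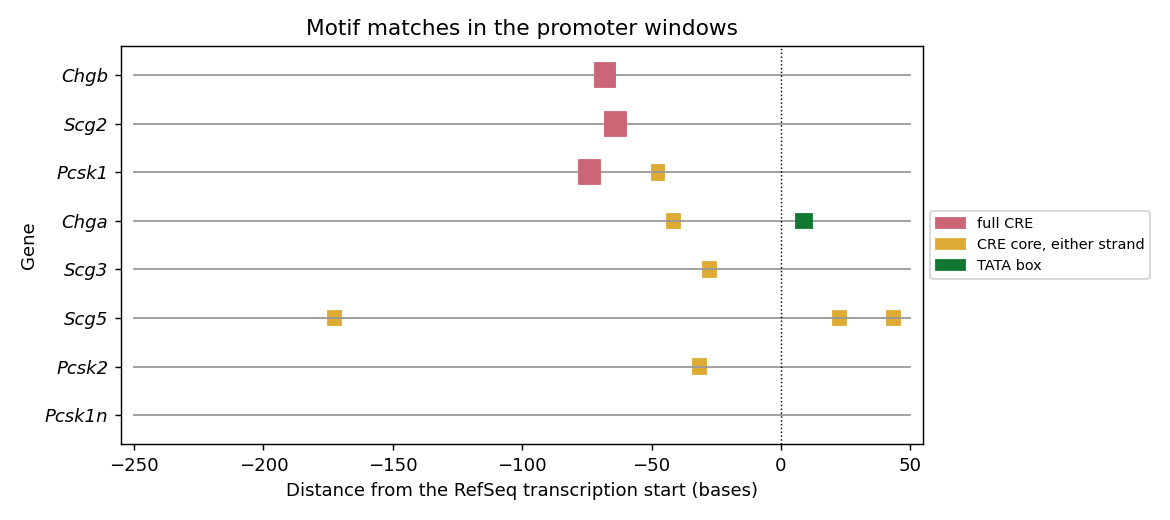
Matches to the CRE (red), its core (yellow) and the TATA box (green) in the promoter windows of 8 genes, by distance in bases from the RefSeq transcription start (dotted line). The 3 full CREs lie between 78 and 61 bases before the start, and the Pcsk1n window has no match.

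Vgf, on chromosome 5 from 137026392 to 137033351 (forward strand, GRCm38, GENCODE M21), encodes a precursor of several neuropeptides and was the most abundant of the granins. Here and for the other genes values are listed in the order of the replicate numbers. Vgf stood at 27.7, 30.7 and 34.0 CPM in the CON libraries and at 144, 142 and 124 CPM in the KD libraries. The KD libraries were all above 120 CPM and the CON libraries all below 35, a 4.44-fold difference (log2 2.15, SE 0.0754). Chga, on chromosome 12 from 102554969 to 102565028 (forward), encodes chromogranin A, a major soluble protein of chromaffin granules and the precursor of peptides such as catestatin. Its libraries held 10.9, 10.5 and 9.31 CPM in CON and 41.7, 42.1 and 42.3 CPM in KD, which is 4.09-fold higher (log2 2.03, SE 0.077). The 3 KD values of Chga differed by less than 1 CPM.

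Scg3 and Scg5 went from nearly silent to moderate levels. Scg3, on chromosome 9 from 75643189 to 75684056 (reverse), encodes secretogranin III, which tethers chromogranin A to the cholesterol-rich granule membrane. Its counts were 22, 30 and 20 in CON against 759, 803 and 846 in KD, or 0.646, 0.825 and 0.615 CPM against 18.1, 18.8 and 23.1 CPM. KD-3 held the highest value, and the difference was 28.5-fold (log2 4.83, SE 0.162). Scg5, on chromosome 2 from 113776362 to 113829121 (reverse), gathered only 10, 12 and 10 counts in CON, against 405, 361 and 374 in KD. In CPM these were 0.293, 0.330 and 0.307 against 9.66, 8.43 and 10.2, a 30.0-fold difference (log2 4.91, SE 0.193). Among the log2 fold changes of the 18019 genes tested, Scg3 and Scg5 both lay at the 99.9th percentile. That rank is a description only, because the family was chosen on this contrast. The ratio of summed counts, scaled by library size, was 28.4 for Scg3 (95% exact interval 22.5 to 36.4) and 30.2 for Scg5 (21.3 to 44.4). Such intervals cover counting error only.

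Chgb and Scg2 were the least abundant granins in KD. Chgb, on chromosome 2 from 132781278 to 132795079 (forward), encodes chromogranin B, a granule matrix protein. Its counts were 20, 18 and 18 in CON and 174, 177 and 188 in KD, and its mean went from 0.545 ± 0.0465 to 4.47 ± 0.575 CPM (SD, n = 3), 8.17-fold higher (log2 3.03, SE 0.211). Scg2, on chromosome 1 from 79434669 to 79440120 (reverse), encodes secretogranin II, the precursor of secretoneurin. Only CON-2 held any counts among the CON libraries, 2 of them, whereas the KD libraries held 42, 22 and 30. The groups did not overlap, but with 2 counts in all of CON the size of the difference is poorly known. The ratio of summed counts was 39.9, with a 95% exact interval from 10.7 to 334. Most low counts were even, as if both mates of a pair had been counted, and with counts divided by 2 the interval was 6.82 to 1609.

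Among the enzymes, Pcsk1, on chromosome 13 from 75089826 to 75134861 (forward), encodes prohormone convertase 1. It stood at 5.08, 3.63 and 5.32 CPM in CON and at 15.6, 14.4 and 15.8 CPM in KD, 3.28-fold higher (log2 1.71, SE 0.128). The KD libraries lay close together and clear of the CON libraries. Cpe, on chromosome 8 from 64592542 to 64693054 (reverse), encodes carboxypeptidase E, which removes the basic residues that convertases leave. It had 16.5, 15.6 and 15.9 CPM in CON and 26.0, 26.0 and 24.0 CPM in KD. The groups were apart, and the 1.58-fold difference (log2 0.66, SE 0.0749) was the smallest of the genes that were higher. Pcsk2, on chromosome 2 from 143546156 to 143816285 (forward), encodes prohormone convertase 2 and was close to undetected. With 2, 0 and 3 counts in CON against 8, 10 and 7 in KD, it had too few for the fit. Summed over libraries the ratio was 4.24, with a 95% exact interval from 1.60 to 14.2, or 1.13 to 46.9 with counts divided by 2. Pcsk2 shares 260 exonic bases with Pcsk2os1 on the opposite strand, which had 8 to 18 counts in CON and 4 to 14 in KD, and 99 with Pcsk2os2. How the counting treated strand is not given in the sources, so reads of the shared bases cannot be told apart.

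Pcsk1n, on chromosome X from 7919822 to 7924410 (forward), was the exception. Its libraries held 37.1, 42.4 and 37.3 CPM in CON and 32.0, 29.1 and 16.2 CPM in KD. All KD values lay below all CON values in CPM, an order that 32.8% of the 18019 genes tested had. Pcsk1n was 1.51-fold lower in the fit (log2 -0.59, SE 0.194), and KD-3 was the lowest. Without KD-3 the KD mean was 30.5 CPM instead of 25.8, the log2 fold change was -0.36, and edgeR still placed Pcsk1n lower. With libraries scaled by total count only it was also -0.36 and did not pass the threshold in edgeR, nor did Pcsk1n pass in DESeq2 or in edgeR without a filter on low counts. In FPKM, which carries no TMM scaling, the groups overlapped, since KD-1 at 15.72 lay above CON-1 at 15.65. Among 14550 genes averaging 1 CPM or more, 94 were in KD-3 below 60% of both other KD libraries, as Pcsk1n was, against 32 in KD-1 and 26 in KD-2. Pcsk1n shares 135 exonic bases with Eras, a gene of a Ras protein of embryonic stem cells on the opposite strand. Eras fell from 32.6 ± 1.31 to 10.4 ± 1.11 CPM (SD, n = 3), and its part in the Pcsk1n counts was not tested.

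Per length, the order of the 10 genes changed between the groups. In CON, Pcsk1n led at 16.4 ± 1.25 FPKM, followed by Vgf at 9.57 ± 0.956, Cpe at 5.66 ± 0.179, Chga at 3.44 ± 0.291 and Pcsk1 at 0.770 ± 0.151 (SD, n = 3). Scg3, Chgb and Scg5 lay close together at 0.234, 0.184 and 0.183 FPKM, and the ranges of Chgb and Scg5 overlapped, as did those of Scg2 and Pcsk2 at the bottom. In KD, Vgf led at 49.7 ± 3.85 FPKM and Chga came next at 16.5 ± 0.153. Pcsk1n (12.7 ± 4.14) and Cpe (10.5 ± 0.455) were not separated, because Pcsk1n in KD-3 was only 7.98 FPKM. Scg3 at 7.90 ± 1.09 and Scg5 at 6.51 ± 0.630 FPKM now stood above Pcsk1 at 2.95 ± 0.151, which they had been below in CON. Chgb, Scg2 and Pcsk2 held the last places at 1.77, 0.335 and 0.0281 FPKM.

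**Figure D3:**
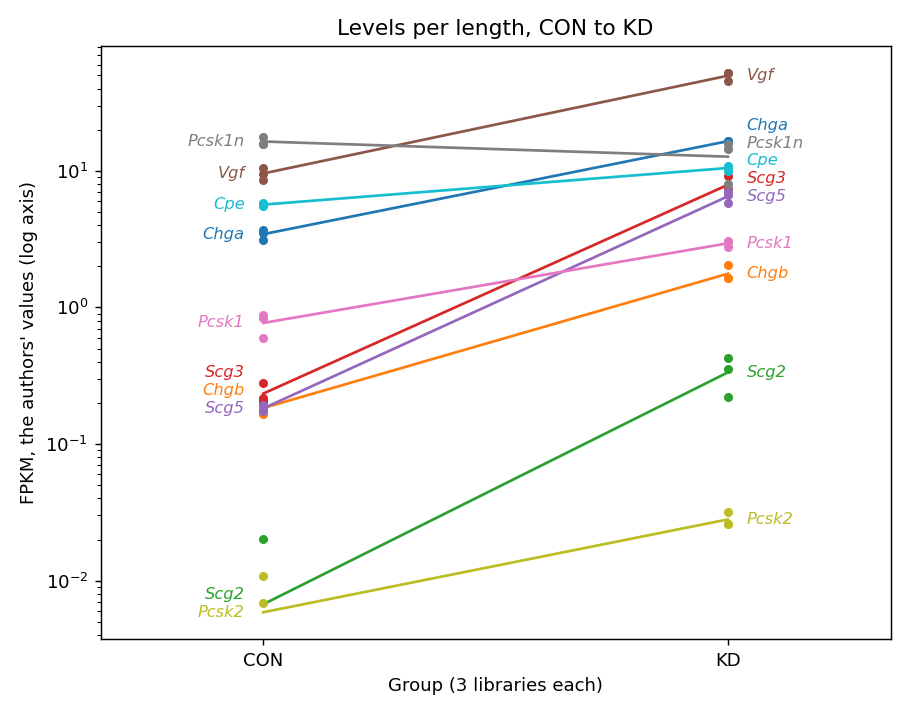
Levels per gene length in the authors' FPKM, on a log axis, for CON and KD; points are libraries, lines join the group means, and libraries at 0 (2 for Scg2 and 1 for Pcsk2, all CON) are left out as points but not from the means. Scg3 and Scg5 cross Pcsk1 between the groups, and Pcsk1n is the only line that falls.

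The summed level of the 6 granins was 12.9, 13.7 and 14.2 FPKM in the CON libraries and 84.3, 83.4 and 80.5 FPKM in the KD libraries. FPKM carries no TMM scaling, so this difference between the groups is not on the scale of the fold changes above. Shares and ratios within a library do not depend on that scaling. Vgf and Chga made up most of the granin sum in every library. Vgf was 66.9 to 74.1% of the granin sum in CON and 56.2 to 62.1% in KD, and Chga 21.9 to 28.5% and 19.4 to 20.6%. Scg3 and Scg5 together went from 3.07 ± 0.361% to 17.5 ± 2.34% (SD, n = 3). The balance between the convertase and the precursor of its inhibitor changed too: the FPKM of Pcsk1n was 18.7, 29.9 and 17.9 times that of Pcsk1 in CON, and 5.23, 5.18 and 2.61 times in KD. The groups did not overlap in this ratio, with or without KD-3. This ratio and those below are made of levels behind the choice of the family, so nothing is read from their separation. The part of Eras in the Pcsk1n counts was not tested. Vgf went from 0.586 ± 0.0751 to 4.19 ± 1.29 times the FPKM of Pcsk1n, and Scg5 from 0.246 ± 0.0683 to 2.20 ± 0.105 times that of Pcsk1.

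**Figure D4:**
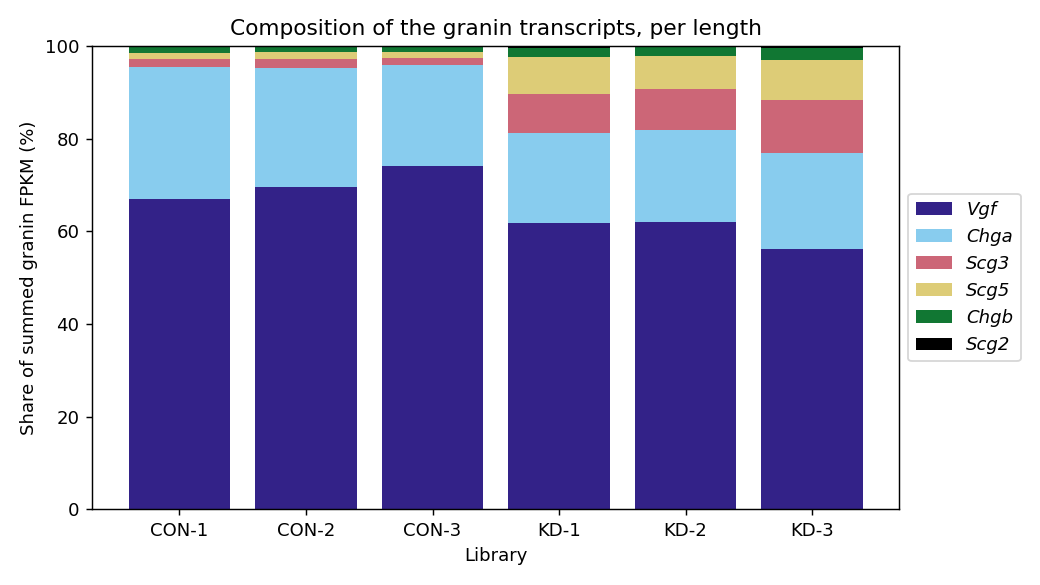
Share of each granin in the summed granin FPKM of each library, in percent, stacked to 100. Scg3 and Scg5 together fill 2.72 to 3.44% of the CON bars and 15.9 to 20.1% of the KD bars, and Vgf is the largest part of all 6.

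Genes whose profile over the 6 libraries was nearest to that of the 3 members with the largest fold changes were looked up outside the family, by the root mean square difference of centred log2(CPM + 1). Ptprn2, a granule membrane protein gene, was nearest to Scg5 (0.105) and Syp, the synaptophysin gene, to Scg3 (0.213). Gbgt1 was nearest to Scg2 (0.0385), where the low level of Scg2 compresses its profile. With 6 libraries in a pair of groups, such likeness reflects mainly the difference between the groups.

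Other enzymes that process prohormones mostly rose. Of 22 genes listed by function, all tested in edgeR, 16 rose and 3 fell, while 3 missed the threshold. Their median log2 fold change was 0.60, against 0.02 for all genes tested. Beside the counts of this list and of those below, edgeR placed 32.2% of all genes tested higher and 30.8% lower. The carboxypeptidase Z gene Cpz rose 5.74-fold, with a mean of 1.71 ± 0.185 CPM in CON against 9.82 ± 1.12 in KD (edgeR adjusted p = 1.00e-09). Cpxm1 and Aebp1, which encode carboxypeptidase-like proteins held to lack catalytic activity, rose 2.80-fold and 3.20-fold. Pcsk6, a convertase that activates TGF-beta family precursors such as Nodal, fell 1.77-fold, with a mean of 110 ± 3.09 CPM in CON against 62.0 ± 1.96 in KD (edgeR adjusted p = 1.51e-09). Neprilysin, a peptide-degrading protease encoded by Mme, fell 1.53-fold. Rnpep, an aminopeptidase gene, fell 1.15-fold, a fall not seen with libraries scaled by total count (log2 0.03).

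Genes of granule biogenesis and cargo sorting were more mixed. Among 26 tested, 14 rose and 3 fell, 9 missed the threshold, and the median log2 fold change was 0.20. Scaled by total count, 20 rose and 1 fell. Ptprn2 and Ptprn, the paired receptor-type phosphatase-like proteins of the granule membrane, rose 16.2-fold and 2.65-fold. Ptprn2 went from 0.991 ± 0.053 to 16.1 ± 0.368 CPM (edgeR adjusted p = 1.21e-12) and Ptprn from 64.6 ± 3.75 to 171 ± 15.9 CPM (edgeR adjusted p = 8.68e-11). Rundc3a rose 2.26-fold. Slc18a1, a vesicular monoamine transporter gene, fell 1.59-fold, with a mean of 4.96 ± 0.765 CPM in CON against 3.13 ± 0.0944 in KD (edgeR adjusted p = 0.00134). Vps54 and Ccdc186, which act in retrograde transport to the Golgi and in granule maturation, each fell 1.16-fold, and neither fell with libraries scaled by total count (log2 0.01 for both).

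Genes of granule docking and release rose more often than not. Of 33 listed, 31 were tested: 22 rose and 3 fell, 6 missed the threshold, and the median log2 fold change was 0.78. Unc13a, a vesicle priming factor gene, rose 3.52-fold, with a mean of 21.1 ± 1.58 CPM in CON against 74.2 ± 1.56 in KD (edgeR adjusted p = 4.23e-12). Rab3b, a small GTPase gene of secretory vesicles, rose 3.20-fold, and Baiap3, a priming factor gene of dense-core granules, rose 4.25-fold, with a mean of 3.33 ± 0.584 CPM in CON against 14.2 ± 1.68 in KD (edgeR adjusted p = 3.71e-09). The falls were small: Dnajc5, a vesicle chaperone gene, fell 1.17-fold and Rab27a 1.14-fold, and neither fell with libraries scaled by total count (log2 0.00 and 0.04, with Rab27a above 0). The third, Rph3a, averaged 0.905 ± 0.319 CPM in CON and 0.379 ± 0.269 in KD, and the libraries of the groups overlapped. Without CON-1, or without KD-1, only 1 gene of the list fell.

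The peptide precursors that such granules carry moved in both directions. Of 62 listed, 29 had enough counts to be tested: 8 rose and 9 fell, 12 missed the threshold, and the median log2 fold change was -0.09. These shares are near those of all genes tested, of which 32.2% rose and 30.8% fell. Without KD-3, 5 rose and 10 fell. Trh, which encodes the precursor of thyrotropin-releasing hormone, was the most abundant of those the naming rule took and fell 3.09-fold, with a mean of 145 ± 3.47 CPM in CON against 47.0 ± 0.933 in KD (edgeR adjusted p = 5.71e-13). Adm2, the adrenomedullin 2 gene, fell 9.56-fold, with a mean of 9.95 ± 0.749 CPM in CON against 1.04 ± 0.0937 in KD (edgeR adjusted p = 6.65e-11), and the calcitonin gene Calca went down from 9.22 ± 1.30 to 2.29 ± 0.505 CPM (edgeR adjusted p = 4.52e-08). Nmb, Nucb2 and Penk, which encode neuromedin B, nesfatin and enkephalin precursors, rose 2.37-fold, 1.67-fold and 1.83-fold. Penk went from 2.29 ± 0.384 to 4.19 ± 0.910 CPM (edgeR adjusted p = 0.00121).

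**Figure D5:**
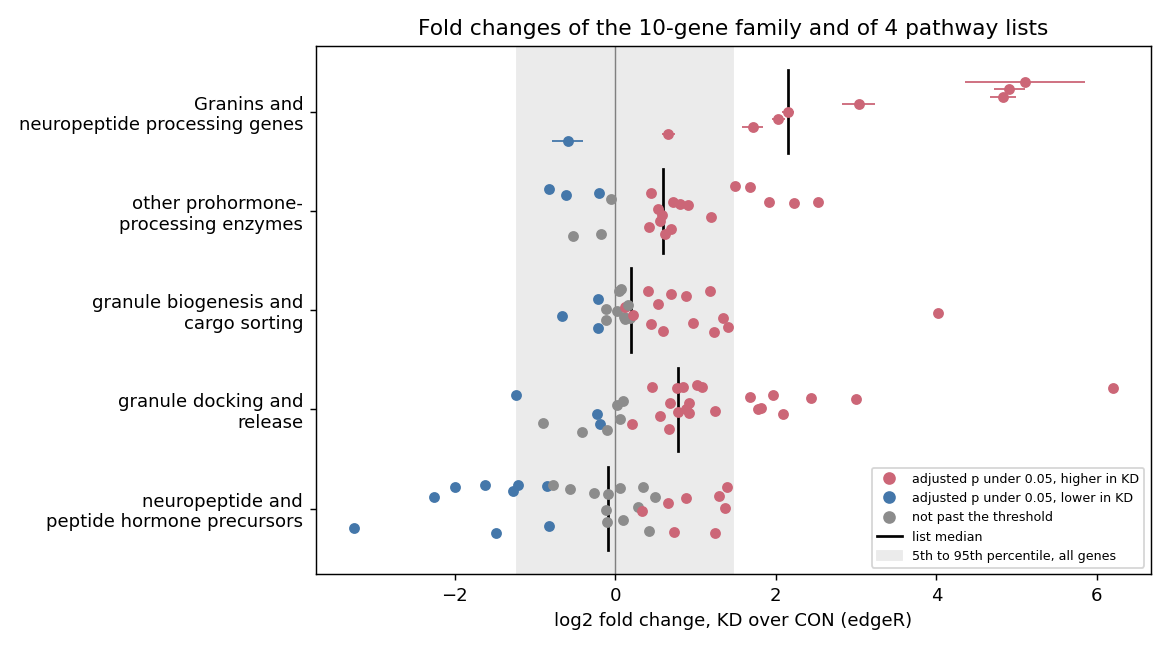
Log2 fold change, KD over CON, of the 9 fitted genes of the family (with SE) and of the genes tested in 4 pathway lists; colour gives the edgeR call, black bars the list medians, and grey the range from the 5th to the 95th percentile of all genes tested (-1.23 to 1.46). The family median is 2.15, and that of the peptide precursors -0.09; the colours of the family describe genes chosen on this contrast.

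Markers of cell types that normally express this family did not rise together. Of 10 neuronal markers, 3 rose and 3 fell, 3 missed the threshold and Dcx was not analysed here. These counts are near the shares over all genes tested, 32.2% higher and 30.8% lower. The summed level of the neuronal markers was 151 to 153 CPM in CON and 71.0 to 74.9 CPM in KD. Syp rose 32.1-fold, while Tubb3, the neuronal tubulin gene, fell 6.59-fold from 37.2 ± 1.27 to 5.64 ± 0.238 CPM. Of 9 neuroendocrine and chromaffin markers 5 were tested, 2 fell and 3 missed the threshold, and their sum was 8.01 to 8.61 CPM in CON and 3.60 to 4.56 CPM in KD. Insm1, a transcription factor gene of neuroendocrine cells, fell 3.06-fold, and Th, the tyrosine hydroxylase gene, 3.75-fold. Dbh, which encodes dopamine beta-hydroxylase, had 0 counts in 5 of the 6 libraries and 1 in KD-3. Isl1, with 8 to 16 counts in CON and 17 to 32 in KD, missed the threshold (edgeR adjusted p = 0.0875) but passed as higher with libraries scaled by total count. Among 9 islet and pituitary markers Pomc and Pdx1 were tested and both missed the threshold (edgeR adjusted p = 0.655 and 0.163; Pdx1 fell without KD-1), with sums of 2.56 to 3.75 CPM in CON and 2.35 to 2.98 CPM in KD. Gcg, the glucagon gene, was close to undetected in both groups, with 0, 2 and 0 counts in CON and 0 in all KD libraries. The levels of Ins1, Ins2, Sst and Prl were not analysed here.

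Markers of other cells also moved in both directions. Of 6 fibroblast and feeder markers 4 were tested, and Col1a2, Pdgfrb and Col1a1 rose 10.8-fold, 2.46-fold and 1.77-fold, while Thy1 fell 2.00-fold. Their sum was 23.9 to 28.1 CPM in CON and 51.1 to 56.7 CPM in KD. Among 6 neural progenitor and glial markers 4 were tested, and Nes, the nestin gene, rose 1.80-fold, Sox1 and Pax6 fell 2.76-fold and 2.22-fold, and Gfap missed the threshold. Pax6 missed it without CON-3. The sum of this list, 30.3 to 34.2 CPM in CON and 52.5 to 53.5 CPM in KD, was mostly Nes, at 28.1 ± 1.38 and 50.4 ± 0.649 CPM. Of 6 endoderm and trophoblast markers Foxa2 and Krt7 rose 3.60-fold and 1.18-fold, Cdx2 fell 1.63-fold and 3 missed the threshold, with sums of 81.1 to 90.1 CPM in CON and 89.7 to 103 CPM in KD. The part of such cells in the levels of the granin family was not tested. In bulk RNA, fewer cells of a type and less RNA per cell cannot be told apart.

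Rest encodes a transcriptional repressor of neuronal genes in other cells, and several granin genes are among its described targets. It fell 3.82-fold, with a mean of 385 ± 3.25 CPM in CON against 101 ± 4.44 in KD (SD, n = 3, edgeR adjusted p = 5.52e-14), in every KD library. Its part in the levels of the 10 genes was not tested.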

How the data were processed

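Raw counts per gene and FPKM were deposited by the authors in a single table for 6 libraries, per the file headers. Per the submitters' processing notes, FastQC 0.11.9, STAR 2.5.3a, featureCounts and the build mm10 were used; how strand and multi-mapping were handled is not given in those sources. The gene lengths behind the deposited FPKM equal the GENCODE M21 exon lengths of all 10 family members, within 1 base. The deposited table also holds the authors' log2 fold changes, which are CON over KD, and adjusted p-values, which were not used as results.

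Between 70.0 and 71.7% of counts from 1 to 20 were even, as when both mates of a pair are counted, so a low count may hold fewer fragments than it shows and intervals may be too narrow. Dates had replaced 26 gene symbols, which were restored from identifiers.

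Counts were fitted in R 4.3.3 with edgeR 4.0.16 (filterByExpr, TMM factors from 0.922 to 1.08, robust quasi-likelihood F-test), with Benjamini-Hochberg adjustment over 18019 genes and a threshold of 0.05. SE is the log2 fold change over the square root of F. A check of the fit on simulated counts changed far fewer genes than edgeR placed here, so it gives no assurance about the scaling of these data. Alternatives were total-count scaling, DESeq2 1.42.0, other filters on low counts, counts divided by 2, a replicate block and each library left out.

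The family, the gene lists and the tests were chosen with earlier results of these data known. Named outside the family are Nat10, Rest, up to 3 genes per direction in each pathway list (smallest p, past the threshold, mean of at least 1 CPM), the nearest profiles and cell type markers. Eras, Pcsk2os1, Pcsk2os2 and Rph3a were chosen after their values were seen.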

Additional observations from a re-analysis of the deposited data

How the results depend on the processing

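Because the family was chosen on this contrast, its counts and directions across alternatives are no sign of stability. With at least 1 CPM in 3 libraries Scg2 was not tested. The member placed lower, Pcsk1n, was not placed (0 members lower) with total-count scaling (0 at an unadjusted p under 0.05 in edgeR), with DESeq2 (1 at an unadjusted p under 0.05) or without a filter on low counts (0 unadjusted in edgeR). Total-count scaling also gave 3535 genes lower instead of 5543, 1 gene lower in granule biogenesis, 0 lower in docking and release (0 unadjusted in edgeR, and 3 in DESeq2 with its own scaling) and a family median of 2.38. With at least 1 CPM in 3 libraries, 5 peptide precursors rose. Leaving out each library in turn gave 1 to 3 genes lower in docking and release and 5 to 8 precursors higher, and the family median ranged from 2.07 to 2.22. Without CON replicate 2 the fitted log2 fold change of Scg2 was 7.87 instead of 5.10, since CON then holds 0 counts. Levels from CPM over exon length give the same ratios and shares by construction, since the library scaling cancels and the lengths are equal. Deviations of same-numbered libraries from their group mean correlated at -0.216, 0.0927 and -0.115, and CON-1 correlated best with KD-3 (0.268). With 3 libraries per group and KD-3 apart from the others, these values cannot decide whether the numbers pair the samples. With the replicate block 5559 genes were higher and 5347 lower, and 8 members higher and 1 lower. The planned count of dibasic pairs in proteins was not run, as no protein table was used here.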

Other observations

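A few other genes of the pathway stood out, chosen after their values were seen. Pam, which encodes the only known enzyme that amidates the ends of peptides, rose 2.29-fold from 29.8 ± 3.39 to 68.2 ± 1.16 CPM (SD, n = 3). Furin, the convertase of the constitutive secretory route, rose 1.33-fold from 91.5 ± 5.99 to 122 ± 10.7 CPM. Pcsk5 rose 4.67-fold from 0.432 ± 0.140 to 2.05 ± 0.479 CPM. Sytl4, which encodes granuphilin, a docking protein of dense-core granules, rose 5.42-fold from 0.945 ± 0.113 to 5.14 ± 0.631 CPM. The small GTPase gene Rab3c had 2 counts in CON-1 and 0 in the other CON libraries, against 82, 71 and 50 in KD. Apela, a peptide hormone gene expressed in embryonic stem cells, fell 1.77-fold from 8.59 ± 0.215 to 4.86 ± 0.188 CPM.

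The full CRE was also found in the promoter windows of 1 gene of granule biogenesis, Slc18a2, and of 3 peptide precursor genes, Cartpt, Sst and Ucn, among 18 and 50 genes with a window. None of the 18 processing enzyme and 20 docking and release genes with a window had it. Among all RefSeq windows 1.79% held the full CRE, and 2.85% of those of genes tested. Lists this short would hold few or none at such shares, so nothing is read from these counts. Cartpt and Ucn had too few counts to be tested, and the level of Sst was not analysed here.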
